A study of Mus musculus with 6 samples.

Results

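Rad51b is a DNA repair gene of the mouse. The study's 2 deposited ATAC-seq peak lists, 1 of peaks specific to a conditional knockout of Mir137 (cKO) and 1 of peaks specific to its control (cWT), place 16 of their 12105 peaks on it. A peak was counted for Rad51b when its midpoint lay inside the gene's span on chromosome 12, or when the nearest end of any protein-coding gene was an end of Rad51b and was at most 100 kb away. By this rule 14 of the 8615 cKO-specific peaks and 2 of the 3490 cWT-specific peaks belonged to the gene. The locus was picked for its listed peaks, many of them cKO-specific and 2 cWT-specific, so the counts describe the locus and are not tested.

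ATAC-seq marks open chromatin by the places where the Tn5 transposase can insert sequencing adapters. The 6 libraries were made from sorted microglia, the resident macrophages of the brain, of C57BL/6J mice aged 8 weeks. Of these, 3 libraries carried the genotype Mir137loxP/loxP;Tmem119-CreERT2 (cKO) and 3 carried Mir137+/+;Tmem119-CreERT2 (cWT), each from about 50000 cells. The controls thus share with the knockout the recombinase CreERT2, driven by Tmem119 and switched on by tamoxifen, and mice of both genotypes were injected on 7 days in a row from an age of 7 to 8 weeks. The series names 4 mice, and which library came from which mouse is not stated. Neither list has a peak within 100 kb of Mir137 (the nearest is 995 kb away, in the cWT list), so the lists hold no check of the deletion. Each list stands for a whole genotype without values by library, so replicate spread and read depth cannot be given. Among 15 microglial marker genes, 10 had a cKO-specific peak (23.8% of all coding genes did) and 3 a cWT-specific peak (12.3%). Cx3cr1, Csf1r, Olfml3 and Aif1 had neither. The lists hold only peaks deposited as specific to 1 genotype, so marker counts cannot check the cell type. Some markers of other cells had a cKO-specific peak too: 4 of 5 astrocyte, 4 of 5 vascular and 3 of 5 oligodendrocyte-lineage genes. Fewer did among neuronal (2 of 6), lymphocyte (1 of 5) and non-microglial macrophage or monocyte markers (2 of 5). A cWT-specific peak was found for 2 of 5 vascular, 2 of 5 oligodendrocyte-lineage and 2 of 5 non-microglial macrophage or monocyte genes. The same held for 1 of 5 astrocyte, 1 of 5 lymphocyte and 1 of 6 neuronal genes. The sets also differ in length. The median span was 60.5 kb for the neuronal, 48.4 kb for the astrocyte and 46.2 kb for the vascular set. It was 18.4 kb for the oligodendrocyte-lineage set and 14.7 kb for microglia. For the other macrophage or monocyte set it was 12.3 kb, and for lymphocytes 6.7 kb. Whether length bears on these counts was not tested. The lists give no level from which the share of other cells could be told.

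The product of Rad51b works in homologous recombination, the repair of DNA breaks from an intact copy. It acts with RAD51C, RAD51D and XRCC2 in the complex known as BCDX2. The gene encoding it is far longer than those of its partners, most of its length being introns. A peak inside such a gene lies near Rad51b on the map and is not thereby shown to act on it.

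Rad51b (gene ID 19363) spans chr12:79297282-79848260 in mm10 (GRCm38.p6), 551 kb, and is transcribed from the lower to the higher coordinate. Its 5′ neighbour Zfyve26, which encodes a zinc finger protein that binds the lipid PI3P, lies 959 bp before the start of Rad51b and is read in the opposite direction. Past its 3′ end the next coding gene is Zfp36l1, which encodes an RNA-binding protein that promotes mRNA decay, 259500 bp away, and the stretch between holds noncoding genes. The listed peaks nearest the start of Rad51b are not at the promoter. The first peak inside the gene lies 50.6 kb downstream of the start, and the nearest upstream one lies 88.2 kb away at Rdh12, a retinol dehydrogenase gene. The cKO numbering (described below) skips 2 peaks between them, whose positions were not used here. The 250 bases before the first of 2 annotated starts of Rad51b (RefSeq, GRCm38.p6, chr12:79297032-79297281, plus strand) are shown because all distances are counted from their end. The Rdh12 line gives the 168 bases before that gene's start that lie inside the Rdh12 peak (chr12:79208745-79208912, plus strand), the stretch of a listed peak within 100 kb of Rad51b for which sequence was at hand. Capitals mark CCAAT on either strand.
Rad51b promoter: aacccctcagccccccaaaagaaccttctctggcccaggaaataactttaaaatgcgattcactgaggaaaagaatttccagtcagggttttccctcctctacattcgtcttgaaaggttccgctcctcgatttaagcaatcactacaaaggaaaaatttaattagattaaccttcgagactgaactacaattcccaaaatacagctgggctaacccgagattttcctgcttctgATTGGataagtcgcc
Rdh12 promoter within the cKO-specific peak: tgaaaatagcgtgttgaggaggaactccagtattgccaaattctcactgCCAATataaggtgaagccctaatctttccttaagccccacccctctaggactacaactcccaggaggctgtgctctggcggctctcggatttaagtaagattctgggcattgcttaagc
Each sequence holds 1 CCAAT, a motif found in 33.8% of 32851 RefSeq promoter windows of 250 bases. Neither holds the AP-1 motif TGANTCA (6.75% of windows), the PU.1 motif GAGGAAGT (2.44%), the GC box GGGCGG (32.7%) or the E-box CACGTG (6.02%), all searched on both strands. The shares are for windows of 250 bases, and the Rdh12 stretch of 168 bases is shorter. The Rad51b window has 42.8% G and C. The sequences of the 16 Rad51b peaks themselves were not used here.

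Split where neighbouring midpoints were more than 50 kb apart, a chosen limit, the 16 peaks fell into 3 groups along the gene. The groups were separated by stretches of 270 kb and 102 kb with no listed peak. The widest gaps left inside a group were 41.5 and 43.6 kb, both in the last one. The 5′ group held 3 cKO-specific peaks, 50.6 to 62.3 kb from the start. The middle group held 3 cKO-specific peaks, 333 to 345 kb from the start. The 3′ group held 8 cKO-specific and both cWT-specific peaks, from 447 kb to 588 kb, the last of them 37.2 kb past the gene's 3′ end. The cWT-specific peaks thus lay in the 3′ group, at 458 and 511 kb, and the cKO-specific peaks in all 3.

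**Figure D1:**
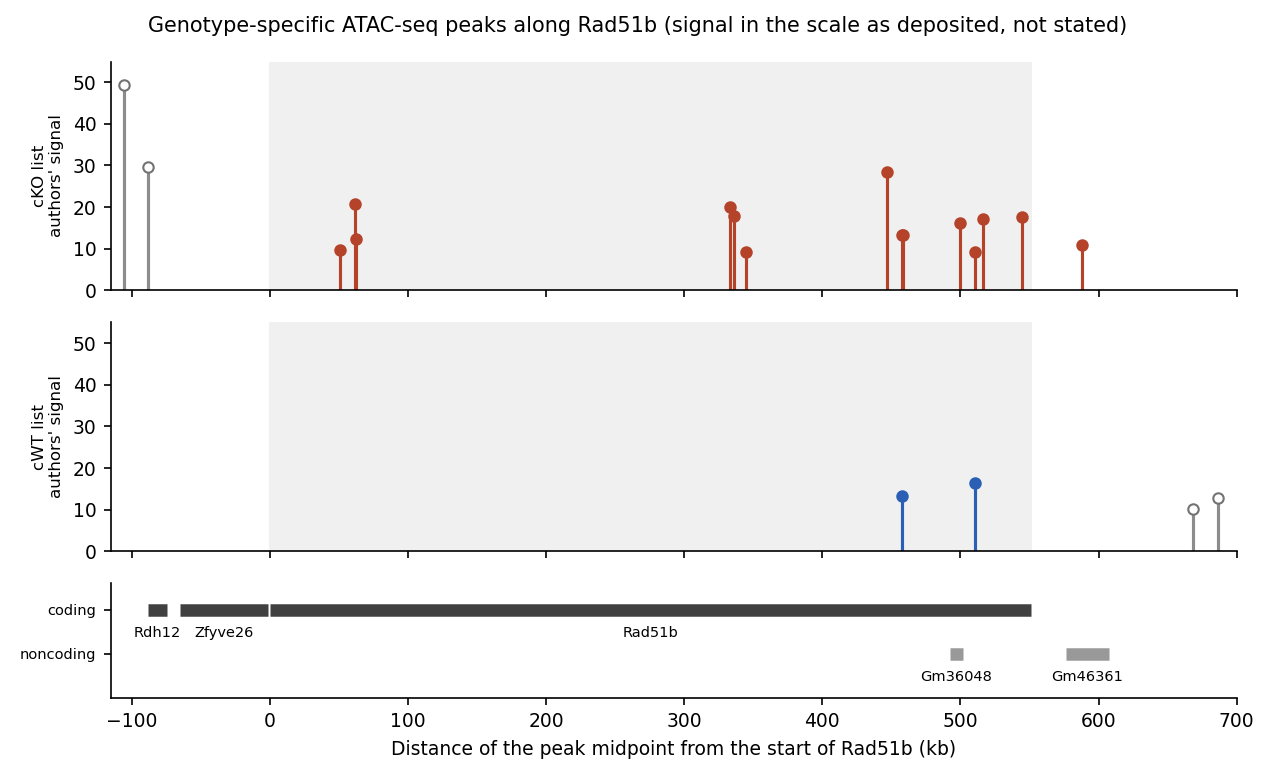
Genotype-specific peaks along Rad51b, with the distance of each peak's midpoint from the gene's start in kb on the horizontal axis and the signal that the authors deposited on the vertical axis, for the cKO list (top) and the cWT list (middle); filled points are the 16 Rad51b peaks, open points are peaks outside the rule, and the shaded block is the gene's span. The 14 cKO-specific peaks form 3 groups, and both cWT-specific peaks fall in the last one.

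The peaks of the 5′ group were narrow. The first, chr12:79347804-79348003, was 200 bp wide with a signal of 9.63 and a p-value of 0.965. The second, chr12:79358936-79359135, was also 200 bp wide and had a signal of 20.6 with a p-value of 0.735. The third began 346 bp after it, at chr12:79359482-79359684, 203 bp wide, with a signal of 12.2 and a p-value of 0.931. All 3 were among the narrower cKO-specific peaks, at the 10.2 to 13.2 percentile of width in that list, while their signals ran from the 11.0 to the 73.3 percentile. Signal, p-value and adjusted p-value are the authors' own values for each peak. No source used here states the scale of the signal or what the p-value tests, so signals are read only within a list.

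The middle group held the locus's lowest p-value. The peak chr12:79630145-79630788 was 644 bp wide, with a signal of 20.1, a p-value of 0.159 and an adjusted p-value of 0.892, and it was the 1 Rad51b peak that the authors named primary (2.82% of cKO-specific and 1.38% of cWT-specific peaks are). The peak 2696 bp after it, chr12:79633485-79633835, had a signal of 17.8 and a p-value of 0.347. The third, chr12:79642045-79642257, was 213 bp wide with a signal of 9.14 and a p-value of 0.837. These 3 peaks lay 206 to 218 kb from the nearer end of the gene, farther than any other of its peaks.

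In the 3′ group the cKO-specific peak with the highest signal came first. This peak, chr12:79744046-79744559, was 514 bp wide with a p-value of 0.344. Its signal, 28.4 (the 92.0 percentile of the cKO list), was the highest of the gene's cKO-specific peaks. The peak chr12:79797023-79797422, 400 bp wide with a signal of 16.1, lay inside the noncoding gene Gm36048, which is nested in Rad51b. The peak chr12:79813358-79814029 was the widest of the locus at 672 bp, with a signal of 17.2 and a p-value of 0.913. The peak chr12:79841339-79841703 lay 6.74 kb before the gene's 3′ end, with a signal of 17.7 and a p-value of 0.801. The peak past the end, chr12:79885266-79885665, lay inside the noncoding gene Gm46361, with a signal of 10.9 and a p-value of 0.948.

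Read in order of position, the 16 peaks formed 5 runs of 1 genotype: 8 cKO-specific peaks, 1 cWT-specific, 3 cKO-specific, 1 cWT-specific and 3 cKO-specific. Each cWT run within the locus was thus a single peak. How often chance gives such an order was not worked out.

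Both cWT-specific peaks touched a cKO-specific peak. The first, chr12:79755142-79755385 (244 bp, signal 13.3, p-value 0.579, adjusted p-value 0.981), sat between 2 cKO-specific peaks. It overlapped the last 16 bp of chr12:79754854-79755157 (304 bp), which is 6.56% of the cWT peak and 5.26% of the cKO peak, and it ended 13 bp before chr12:79755399-79755567 (169 bp). The 3 peaks cover 714 bp in the order cKO, cWT, cKO. The flanking cKO-specific peaks carried the same signal, 13.2, and the same p-value, 0.666. Among 557 pairs of neighbouring cKO-specific peaks within 1 kb of each other, 312 had the same signal, and in 3 pairs, made of 0.0696% of the list's peaks, the p-value was the same too. The Rad51b pair was the 1 of those 3 with a cWT-specific peak between its members. The cWT list had fewer such pairs, 99 within 1 kb, of which 61 had the same signal and 0 shared both values.

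The second cWT-specific peak, chr12:79808015-79808218 (204 bp, signal 16.3, p-value 0.950), overlapped the last 19 bp of chr12:79807587-79808033 (447 bp, signal 9.14, p-value 0.966). The overlap was 9.31% of the cWT peak and 4.25% of the cKO peak, and together they cover 632 bp. In both places the cKO-specific peak overlapped lay on the 5′ side, with its midpoint 258 and 306.5 bp before that of the cWT-specific peak. Over the whole lists 5.27% of cWT-specific peaks overlapped a cKO-specific peak and 2.14% of cKO-specific peaks overlapped a cWT-specific one; at Rad51b it was 2 of 2 and 2 of 14. Within 1 kb, midpoint to midpoint, the lists' shares were 11.1% and 4.61%, and at Rad51b 2 of 2 and 3 of 14. With 2 cWT-specific peaks this is a description of the locus.

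**Figure D2:**
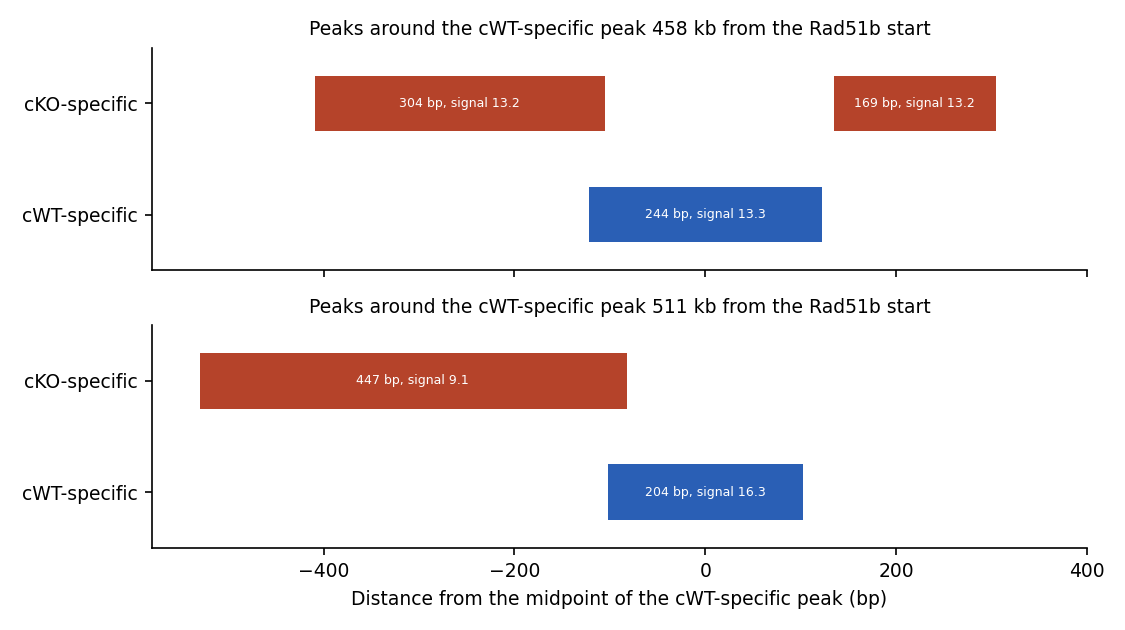
Peaks of both lists around the 2 cWT-specific peaks of Rad51b, drawn to scale in bp from the midpoint of the cWT-specific peak, with cKO-specific peaks in the upper row and cWT-specific peaks in the lower row of each panel. The cWT-specific peaks overlap the cKO-specific peak before them by 16 bp (top) and 19 bp (bottom), and the top one is followed by another cKO-specific peak after a gap of 13 bp.

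Peak names carry a number that rises along each chromosome. It was taken as a rank by position among all peaks called in the genotype, listed or not. From the first to the last Rad51b peak the cKO numbers run from 7096 to 7115, which is 20 numbered peaks, of which 14 are listed as specific and 6 are not. Of those 6, 1 falls in the empty stretch between the 5′ and middle groups, 3 between the middle and 3′ groups and 2 just before the first overlapping pair. From that pair onward, over 131 kb, all 7 numbered cKO peaks (7109 to 7115) are specific. The cWT numbers of the pairs are consecutive as well, 6030 and 6031, and the next 2 listed cWT peaks are 6032 and 6033. Across this 229 kb, then, all 4 numbered cWT peaks are specific, while before it the cWT numbering skips 24 peaks over 1973.5 kb. Genome-wide 25.8% of numbered cKO peaks and 12.1% of numbered cWT peaks are specific; since the locus was picked for its specific peaks and the stretch was marked off after seeing them, nothing is read from the excess. By this reading, from the first cWT-specific peak to the last cKO-specific one, neither genotype has a numbered peak that its list leaves out.

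At the borders of the rule, the last peak inside it was the one 37.2 kb past the 3′ end. The next peak outward was cWT-specific, chr12:79965504-79965933, 117 kb past the 3′ end, with a signal of 10.1 and a p-value of 0.960. After it came another cWT-specific peak, chr12:79983294-79983699, with a signal of 12.8, which is nearer to Zfp36l1. On the 5′ side, the 1 further peak within 100 kb of the gene was the cKO-specific peak at the start of Rdh12, chr12:79208745-79209373, with a signal of 29.7 and a p-value of 0.391. Just outside, at 105 kb, lay the cKO-specific peak at the start of Rdh11, another retinol dehydrogenase gene, chr12:79191771-79192011. Its signal of 49.2 was higher than that of any cKO-specific Rad51b peak. The nearest listed peak past either end of the gene was thus cKO-specific, and the cWT-specific peaks on the 3′ side came farther out, beyond 100 kb.

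The cKO-specific peaks of Rad51b ran from the 8.33 to the 92.0 percentile of signal in their list. The 14 cKO-specific peaks had signals from 9.14 to 28.4 with a median of 14.6, against 16.5 over the whole cKO list, and 6 of 14 lay above the list's median. Their widths ran from 169 to 672 bp, with a median of 358 bp against 314 bp. Their p-values ran from 0.159 to 0.966, with a median of 0.819 against 0.818; 3 of 14 were at most 0.5, against 12.1% of the list. The 2 cWT-specific peaks lay at the 47.4 and 63.4 percentile of signal in the cWT list and at the 27.3 and 13.8 percentile of width, and 0 of 2 had a p-value of at most 0.5 (6.16% of that list). The lowest adjusted p-value the authors gave to any of the 16 was 0.892. Adjusted p-values were high throughout both lists. The lowest was 0.194 in the cKO list and 0.231 in the cWT list, with medians of 0.979 and 0.981.

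**Figure D3:**
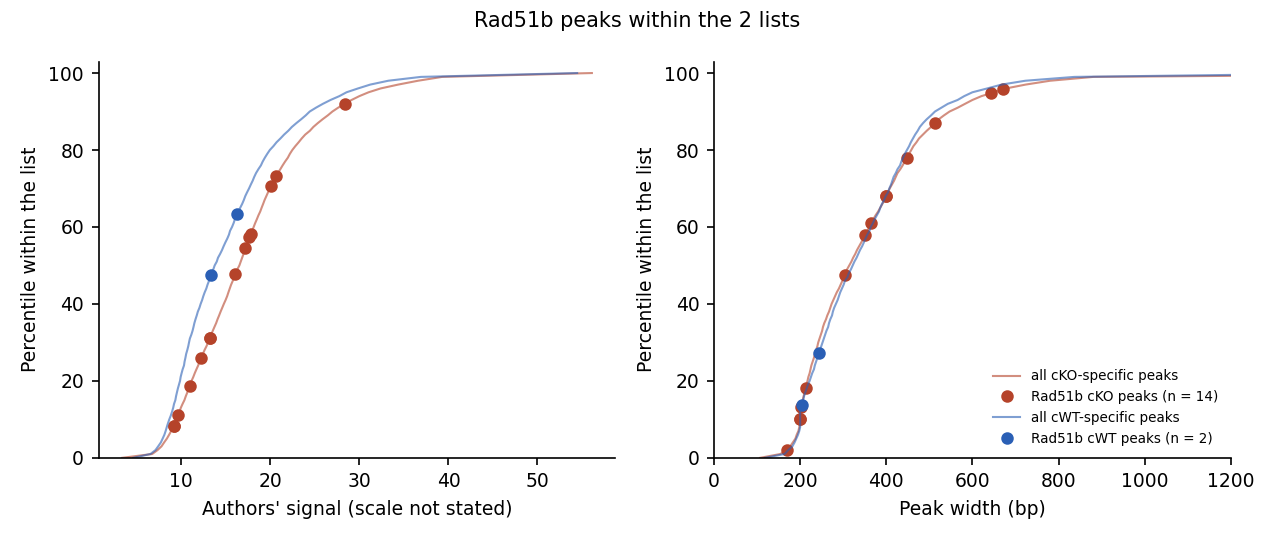
Signal (left, in the scale the authors deposited) and width in bp (right) of the Rad51b peaks against their percentile within their own list; the curves show all 8615 cKO-specific and 3490 cWT-specific peaks, the points the 14 and 2 peaks of Rad51b, and the width axis ends at 1200 bp. The cKO-specific peaks run from the 8.33 to the 92.0 percentile of signal, and the cWT-specific peaks lie at the 47.4 and 63.4 percentile.

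By this rule 0 of 21887 coding genes had more cKO-specific peaks than Rad51b, and 156 had more cWT-specific peaks. The rule counts every peak inside a gene's span, and 191 coding genes are longer than Rad51b. Among the 313 other coding genes with a span from 0.667 to 1.5 times that of Rad51b, the count of cKO-specific peaks ran from 0 to 12 with a median of 0, and 188 had none; the cWT-specific count ran from 0 to 9, and 22 had more than the 2 of Rad51b. Per 100 kb of span, Rad51b held 2.36 cKO-specific and 0.363 cWT-specific peaks, against 0.498 and 0.204 over all coding spans together. The gene was picked from this distribution, so its place in it is given without a test.

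The genes of like length with the most similar pair of counts were Frmd4a, Lpp, Zfhx3, Hivep3 and Foxn3, ranked by the summed difference in the cKO and cWT counts and, at equal differences, by how close their span is to that of Rad51b. Nav3, with 9 and 1, tied with Hivep3 and Foxn3 on the counts and fell out by its length. Frmd4a, a scaffold gene of cell polarity, had 12 cKO-specific and 4 cWT-specific peaks in 8 runs. Rad51b had 5 runs, the most that its 2 cWT-specific peaks allow. The number of runs is bounded by the count of the rarer list, so runs are not ranked between genes. Lpp, a focal adhesion gene, had 11 and 1, with 7 of the 11 inside the gene. Zfhx3, a homeobox transcription factor gene, had 10 and 3 in 6 runs. Foxn3, a forkhead gene on the same chromosome as Rad51b, had 9 and 3 in 5 runs, and Hivep3, a zinc finger gene, 8 and 2 in 3 runs. Overlap of a cWT-specific with a cKO-specific peak occurred at 1 of these 5 genes, Lpp, where the single cWT-specific peak was involved. That peak lay outside the span of Lpp, whereas both cWT-specific peaks of Rad51b lay inside its span. The cWT-specific peak nearest a cKO-specific one was 275.5 bp from it at Lpp, 485 bp at Frmd4a, 2856.5 bp at Foxn3, 6331.5 bp at Zfhx3 and 29500.5 bp at Hivep3, against 219.5 bp at Rad51b.

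**Figure D4:**
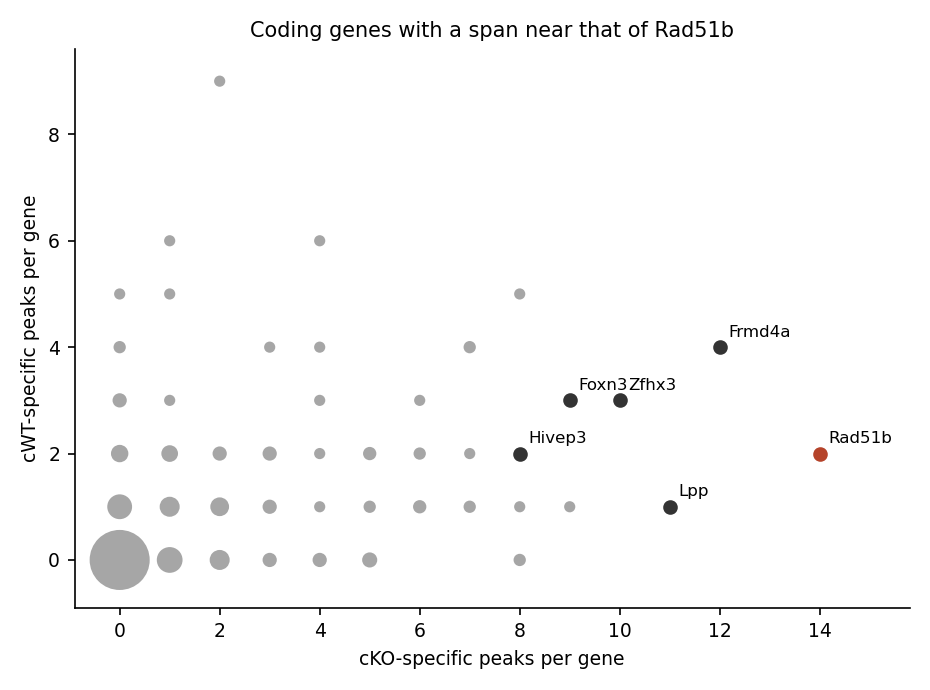
Number of cKO-specific (horizontal) and cWT-specific peaks (vertical) per gene for Rad51b and the 313 other coding genes of similar span; the area of a grey point grows with the number of genes at that pair of counts, dark points are the 5 genes most like Rad51b, and the red point is Rad51b. Rad51b, at 14 and 2, is the point farthest to the right.

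Listed peaks were assigned to 6433 of 21887 coding genes, and most genes have none. Rad51c, Rad51d and Xrcc2, which encode the other subunits of BCDX2, and Xrcc3, whose product pairs with RAD51C, had no peak of either list assigned to them. The nearest listed peak lay 18.0 kb from Rad51c, 56.2 kb from Xrcc2, 70.5 kb from Xrcc3 and 101 kb from Rad51d; those closer than 100 kb are nearest to another coding gene. These genes are also short, from 10.7 kb at Xrcc3 to 28.3 kb at Rad51c.

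Of 30 homologous recombination genes, Rad51b included, 6 had at least 1 cKO-specific peak, against 23.8% of all coding genes, and 2 had a cWT-specific peak, against 12.3%. Of 29 without Rad51b it was 5 and 1, with 7 cKO-specific peaks and 1 cWT-specific peak in all, and the median number of cKO-specific peaks per gene was 0, as over all coding genes. Both shares of the pathway's other genes lay below those of all coding genes, which was not tested, and these genes are longer, with a median span of 30.6 kb against 17.2 kb over all coding genes. Brca1, which directs breaks to recombination, had 1 cKO-specific peak inside the gene (chr11:101543582-101543786, signal 22.1). Palb2, the bridge between BRCA1 and BRCA2, had 1 inside the gene (chr7:122127603-122127865, signal 20.1). Rbbp8, which encodes the end-resection factor CtIP, had 2, of which 1 lay inside the gene. Blm, a helicase gene, had 2 that lay 19.4 and 20.2 kb from it with the same signal, 25.3, and Helq, another helicase gene, had 1 at 11.3 kb. Nbn, which encodes a subunit of the MRN complex that binds broken ends, had the 1 cWT-specific peak, inside the gene (chr4:15987229-15987424, signal 16.4). No gene of the list other than Rad51b had peaks of both genotypes. The peaks of the genes other than Rad51b all had deposited p-values above 0.5, as did most peaks of both lists. Over the whole lists, 12.1% of cKO-specific and 6.16% of cWT-specific peaks had a p-value of at most 0.5.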

How the data were processed

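The samples were grouped by their titles, 3 libraries labelled cKO and 3 labelled cWT. The 2 deposited lists, 1 per genotype, have no header; their columns were read from layout and values. The builds GRCm38 and mm10 and the tools HOMER 4.11, MACS2 2.2.7.1 and Bowtie2 2.4.4 are named, per the submitters' processing notes. The role of each tool, the pooling of replicates, any Tn5 read shift and the rule that made a peak specific are not given in the sources used. The score that the authors deposited equals -125 times log2 of the p-value, rounded down, in all 8615 and 3490 peaks. The scale of the deposited signal is not stated. The p-value and adjusted p-value the authors deposited were used as given. The number of reads behind a peak is unknown, so no interval or floor is given, and a deeper set of libraries could lengthen a list.

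Positions are 1-based. Genes came from the RefSeq table of GRCm38.p6 with 21887 protein-coding genes (mitochondrial genes left out), which has no exons, so exonic and intronic peaks were not separated. Peaks were assigned by midpoint with a limit of 100 kb; a peak inside 1 gene and nearest another counted for both. The named genes were Rad51b, its coding neighbours, Rad51c, Rad51d, Xrcc2, Xrcc3 and each member of a list of 30 homologous recombination genes with a peak, and the 5 genes of like length with the closest counts, ties being broken by span; neighbouring noncoding genes, Rdh11 and Nav3 were added after the values were seen. For 1 further gene under this rule, values are not reported here. The locus and the lists were chosen with earlier results of these data known. The planned comparisons are counts without a test, since the lists hold no replicates. The assignment was tested on simulated data of 400 peaks and recovered 100.0% of the expected pairs. Alternatives covered the assignment, the p-value, the score, the merging of peaks within 500 bp, the overlap and a limit of 10 kb. Computations used Python 3.11.15, numpy 2.4.6 and pandas 2.3.3, and figures matplotlib 3.10.9.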

Additional observations from a re-analysis of the deposited data

How the results depend on the processing

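Of 21 alternatives, 12 left a count within 1.5 times its value. With p-values up to 0.5, Rad51b kept 3 cKO-specific and 0 cWT-specific peaks in 1 run. Of the homologous recombination genes, 1 then had a cKO-specific peak, Rad51b itself, and 0 had a cWT-specific peak. The share of all coding genes under that limit was not worked out, so nothing is read from these gene counts. Of all listed peaks, 12.1% of cKO-specific and 6.16% of cWT-specific ones pass the limit. At or above the median score of each list it kept 7 and 1 peaks in 3 runs. With an overlap of at least 0.5 of the shorter peak, 0 of the 4 overlapping Rad51b peaks remained. Counting only peaks within 100 kb of an end gave 10 and 2 peaks, and merging peaks within 500 bp gave 12 and 2 in 5 runs. Apart from the overlap alternative, these alternatives use fewer peaks by construction. The overlap alternative keeps the same peaks and asks for a larger overlap. No paired analysis was possible because neither list gives values by library, and for the same reason no replicate could be left out.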
